A study of Homo sapiens with 4 samples.

Results

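The nuclear-encoded subunits of the mitochondrial respiratory chain were examined in U87MG cells, an established human glioblastoma line, after silencing of caspase-2. Members were the probe sets with a single gene symbol in the platform annotation that starts with NDUFA, NDUFB, NDUFC, NDUFS, NDUFV, UQCR, COX4 to COX8 or ATP5, or that is SDHA, SDHB, SDHC or SDHD, without the NDUFAF assembly factors. They came to 88 of 32321 probe sets and covered 82 genes. Complex I held 37 probe sets of 35 genes, complex II 5 of 3 genes, complex III 8 of 8 genes, complex IV 18 of 17 genes and complex V 20 of 19 genes. The symbols also brought in genes that are not subunits: the pseudogenes UQCRBP1 and ATP5F1EP2, the noncoding RNA NDUFV1-DT, the supercomplex factor COX7A2L, the inhibitor ATP5IF1 and ATP5MGL, a second copy of ATP5MG. Some other subunits were not analysed here, CYC1 is given with the other genes, and 9 probe sets that carry a member symbol together with other symbols were not used.

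The experiment held 4 Affymetrix arrays of total RNA. They came from U87MG cells transfected with an siRNA against CASP2, with 2 biological replicates, and from U87MG cells transfected with a control siRNA, with 2 biological replicates. All 4 cultures belong to a single cell line, and the labels give no time after transfection and no sequence of the oligos. The comparison asks which transcripts differ in cells with less caspase-2, a protease of the apoptotic machinery. Values are log2 expression values made by Robust Multi-Array Average (RMA), 1 per probe set and array, where a probe set is a group of short probes along a transcript.

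The respiratory chain sits in the inner mitochondrial membrane. Complex I (NADH dehydrogenase) and complex II (succinate dehydrogenase) pass electrons to ubiquinone, complex III (cytochrome bc1) hands them to cytochrome c, and complex IV (cytochrome c oxidase) gives them to oxygen. Complexes I, III and IV pump protons, and complex V (ATP synthase) makes ATP from their return. Complex II is encoded in the nucleus alone, while the others combine nuclear subunits with some made inside the mitochondrion. Of the mitochondrially encoded subunits, 0 of 13 had a probe set that carried their symbol alone, so the members bear on the nuclear share of the chain. Probe sets with several symbols were not searched for them. Many nuclear subunit genes are known targets of the nuclear respiratory factors NRF1 and GABP.

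The promoters of the member genes were searched for the letters that these factors bind, and 6 of them are shown because they cover the range, from 4 NRF1 matches to no match. RefSeq promoters (GRCh38.p14) were matched by symbol for 68 of the 82 genes. Each line gives the 250 bases before the start of a gene, 5′ to 3′ along the gene, with matches in capitals. The motifs searched on both strands were GCGCA, any base and GCGC for NRF1, and CCGGAAG for GABP, which do not overlap each other in the promoters shown. SDHA lies at chr5:218070-218319 on the plus strand, NDUFB4 at chr3:120596086-120596335 on the plus strand, NDUFA3 at chr19:54102605-54102854 on the plus strand, UQCR11 at chr19:1605463-1605712 on the minus strand, COX6A1 at chr12:120437863-120438112 on the plus strand and COX6A2 at chr16:31428361-31428610 on the minus strand.
SDHA: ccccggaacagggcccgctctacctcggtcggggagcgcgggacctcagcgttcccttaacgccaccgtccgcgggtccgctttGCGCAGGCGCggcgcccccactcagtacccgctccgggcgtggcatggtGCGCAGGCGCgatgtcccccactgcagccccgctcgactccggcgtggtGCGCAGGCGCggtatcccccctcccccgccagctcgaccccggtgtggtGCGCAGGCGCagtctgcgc
NDUFB4: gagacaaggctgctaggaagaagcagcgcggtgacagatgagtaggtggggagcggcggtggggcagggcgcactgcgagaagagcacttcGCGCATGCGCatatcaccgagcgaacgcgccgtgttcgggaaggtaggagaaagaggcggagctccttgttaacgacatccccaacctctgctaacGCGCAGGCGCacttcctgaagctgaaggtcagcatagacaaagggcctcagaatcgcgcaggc
NDUFA3: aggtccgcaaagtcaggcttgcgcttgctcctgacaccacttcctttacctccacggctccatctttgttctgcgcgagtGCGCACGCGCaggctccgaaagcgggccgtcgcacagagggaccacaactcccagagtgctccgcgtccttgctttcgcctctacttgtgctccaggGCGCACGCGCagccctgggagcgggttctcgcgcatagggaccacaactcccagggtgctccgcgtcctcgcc
UQCR11: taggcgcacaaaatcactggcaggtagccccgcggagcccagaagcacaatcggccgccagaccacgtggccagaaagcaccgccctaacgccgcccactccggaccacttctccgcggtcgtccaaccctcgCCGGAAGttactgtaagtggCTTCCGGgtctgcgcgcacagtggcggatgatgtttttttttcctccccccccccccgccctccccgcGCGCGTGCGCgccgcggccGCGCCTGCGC
COX6A1: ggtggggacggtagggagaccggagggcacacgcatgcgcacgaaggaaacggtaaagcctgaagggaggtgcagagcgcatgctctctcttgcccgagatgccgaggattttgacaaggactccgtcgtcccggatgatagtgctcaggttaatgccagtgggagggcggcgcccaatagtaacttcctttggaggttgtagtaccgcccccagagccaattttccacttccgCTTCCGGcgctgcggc
COX6A2: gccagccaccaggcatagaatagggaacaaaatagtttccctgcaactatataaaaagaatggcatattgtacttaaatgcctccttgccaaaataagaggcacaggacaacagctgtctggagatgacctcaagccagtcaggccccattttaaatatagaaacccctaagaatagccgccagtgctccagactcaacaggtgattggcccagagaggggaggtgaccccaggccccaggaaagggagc

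SDHA, the flavoprotein that oxidizes succinate, had 4 NRF1 matches. They began 166, 117, 68 and 19 bases before the start, each 49 bases from the next. Such a run is rare, since 4 or more NRF1 matches were found in 11 of 27305 promoters in the table (0.0403%). UQCR11, a small subunit of complex III, had 2 NRF1 and 2 GABP matches, and SDHD, a membrane anchor of complex II, was the other member gene with both motifs. COX6A1, the widely used form of a complex IV subunit, had a GABP match 16 bases before its start. COX6A2, its form in heart and skeletal muscle, had no match to either motif in this window, and its ratio of observed to expected CpG was 0.0661, against 0.857 for COX6A1.

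Across the 68 promoters, NRF1 matched in 14 (20.6%), beside 5.53% of all 27305 promoters and 7.65% of the 15843 of protein-coding genes. GABP matched in 16 (23.5%), beside 8.82% and 11.8%. The TATAAA box was found in 7 (10.3%), beside 11.1% and 9.23%, and the YY1 motif AANATGGCG in 2 (2.94%), beside 1.40% and 1.63%. The NRF1 and GABP letters were thus more frequent in these promoters than in the table as a whole, and those of the TATA box were not. Base composition differed too. The median ratio of observed to expected CpG was 0.852 in the 68 promoters, beside 0.556 in all promoters and 0.737 in those of protein-coding genes. The part of base composition in the motif shares was not tested. The motifs were spread unevenly over the complexes. NRF1 matched the promoters of 5 of 32 complex I subunits, 2 of 2 of complex II, 2 of 6 of complex III, 0 of 9 of complex IV and 4 of 12 of complex V, isoforms of restricted tissues left aside. GABP matched 4 of the 9 complex IV promoters (COX5B, COX6A1, COX6B1 and COX8A), in each within 40 bases of the start. A match is a description of letters and not a bound site.

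**Figure D1:**
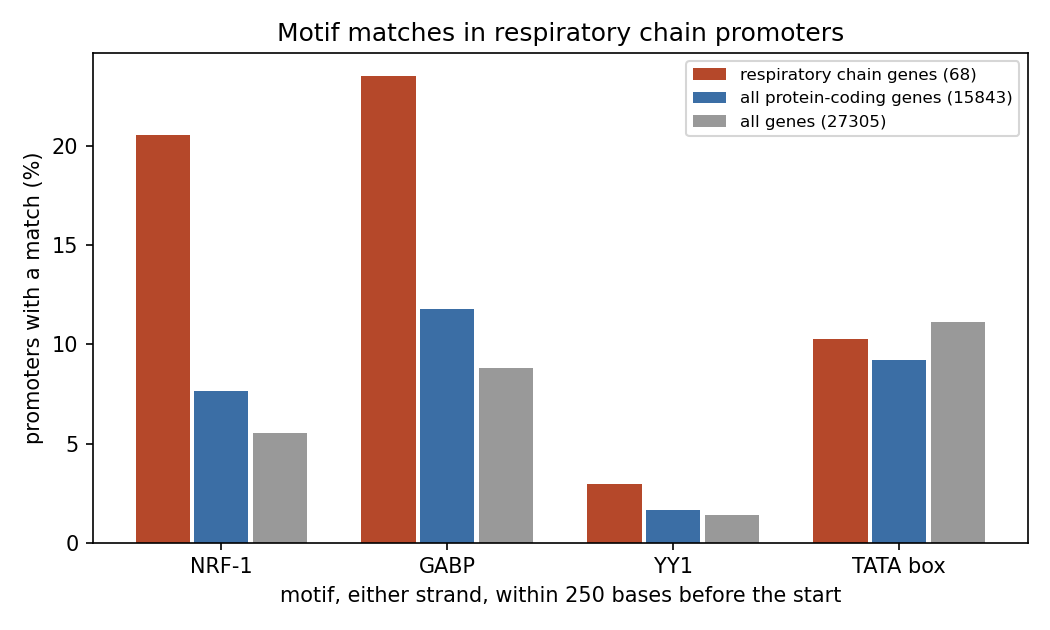
Share of promoters (percent) with a match to each motif on either strand in the 250 bases before the start, for the 68 respiratory chain genes, the 15843 protein-coding genes and all 27305 genes of the RefSeq table. NRF1 and GABP matched 20.6% and 23.5% of the respiratory chain promoters, and the TATA box matched a share close to that of all genes.

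CASP2 itself read 8.79 and 8.52 on the CASP2 siRNA arrays, against 10.74 and 10.69 on the control siRNA arrays. The silenced gene was lower on both treated arrays, with a log2 change of -2.06 (SE 0.13, 95% interval -2.40 to -1.72). Its unadjusted limma p of 4.0e-05 was the smallest of all probe sets, yet the limma adjusted p was 0.9999. With a trended and robust variance in limma the adjusted p was 0.062. The adjusted test thus did not call even the silenced gene. Array medians were 6.18 and 6.28 with CASP2 siRNA and 6.21 on each control array. The CASP2 siRNA replicates differed more from each other than the control replicates did. Over all probe sets, replicate arrays differed with an SD of 0.348 in the CASP2 siRNA group and 0.205 in the control siRNA group. Against the control arrays this SD was 0.238 and 0.255 for the first CASP2 siRNA array, and 0.280 and 0.290 for the second. Of the glioblastoma markers VIM, CD44, FN1, SPARC and NES, 4 of 5 lay above the upper quartile of the array. Of 17 markers of astrocytes, neurons, oligodendrocytes, immune, endothelial and epithelial cells, 0 lay above it and 12 lay below the median. As these are RNA levels of whole cultures, fewer cells of a kind and less RNA per cell cannot be told apart. With 2 arrays against 2, an exact two-sided permutation test cannot give a p below 0.333, so changes were tested with limma over all probe sets.

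Most of the respiratory chain was strongly detected in these cells. The lower quartile, median and upper quartile of all probe sets were 4.41, 6.21 and 8.65 on the log2 scale. Of the 88 members, 67 had a mean above the upper quartile, 9 lay below the median and 3 below the lower quartile. Their median level was 9.88, with a range of 3.61 to 13.21. Probe sets differ in how well they bind their target, so each is set against the array and not against another gene.

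Every complex was represented at high level. In complex I, 29 of 37 probe sets lay above the upper quartile, and their levels ran from 4.09 to 11.23 with a median of 9.64. All 5 of complex II did so, between 8.73 and 11.50 with a median of 10.59. Complexes I and II, where electrons enter, were thus read mostly at high level. In complex III 5 of 8 did so, between 5.72 and 11.60 with a median of 8.89. In complex IV 12 of 18 did so, and these values had the widest range, 3.61 to 13.21, with a median of 9.63. In complex V 16 of 20 did so, between 5.59 and 12.72 with a median of 10.51. Among the brightest were COX6A1, ATP5F1B, the catalytic beta subunit of ATP synthase, and ATP5MC1, which encodes the c subunit of its rotor ring. Of the 9 members below the median, 5 were tissue-restricted isoforms of complex IV, and the others were UQCRBP1, NDUFV1-DT, ATP5MGL and the dimmer of the 2 probe sets of NDUFS4.

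**Figure D2:**
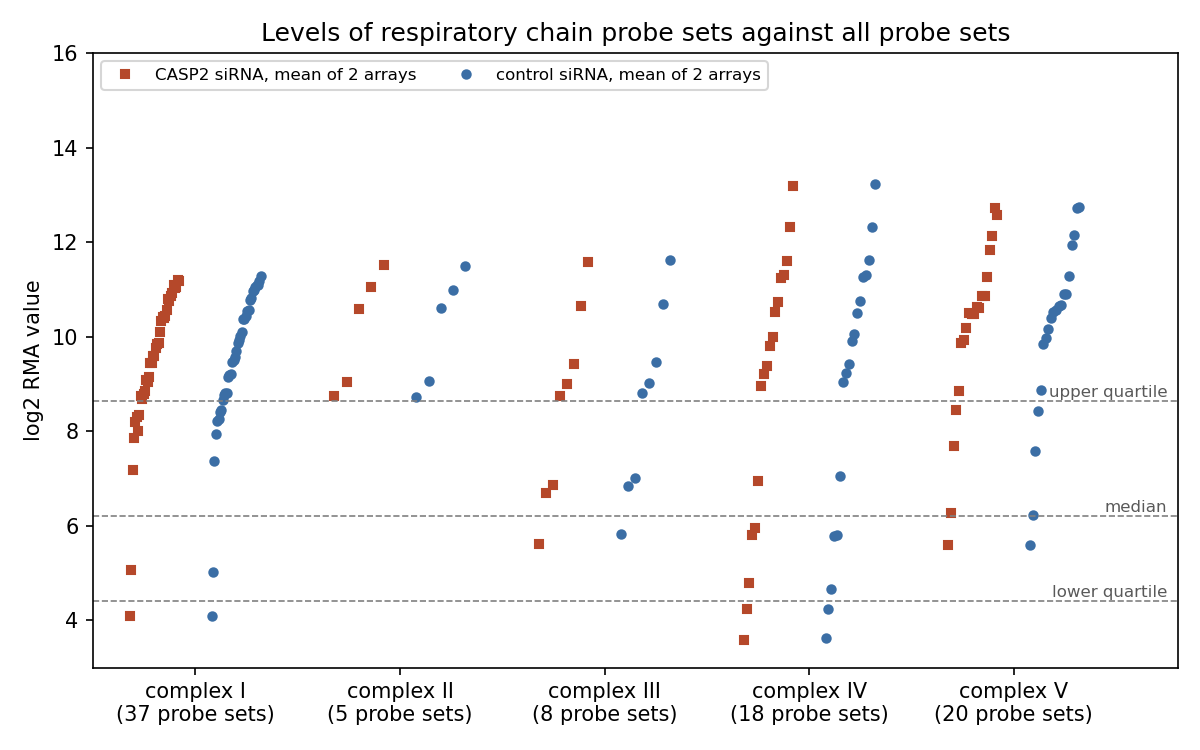
Mean log2 RMA value of each probe set in the CASP2 siRNA arrays (squares, mean of 2) and the control siRNA arrays (circles, mean of 2), ordered within each complex, with the quartiles of all probe sets as dashed lines. Most members lie above the upper quartile of 8.65, and the low tail of complex IV reaches 3.61.

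After caspase-2 silencing, 0 respiratory chain genes passed the limma test. At the cut-off of the study, more than 1.5-fold with an unadjusted p under 0.05, there were 0 of 88 members. The p was taken here from limma and not from the t-test of the study. The same cut-off called 0.693% of all probe sets (0.331% higher and 0.362% lower). Of the 8080 probe sets above the upper quartile, where 67 members lie, it called 3 higher and 7 lower. A count of 0 members is thus near the background. At an unadjusted p under 0.05 alone there were also 0 of 88, beside 3.03% of all probe sets (1.54% higher and 1.49% lower). Of the 8080 probe sets above the upper quartile, 71 were higher and 97 lower at this p. After Benjamini-Hochberg adjustment there were 0 members and 0 of 32321 probe sets, with CASP2 among those not called. The methods' t-test, with its SD raised to at least the median, gave 0 members at an unadjusted p under 0.05. It called only 0.309% of all probe sets, so 0 of 88 is near its background. With the 1.5-fold threshold added, this t-test called 35 probe sets higher and 37 lower. Limma with a trended and robust variance gave 1, ATP5MC1, with an adjusted p = 0.99999, beside 3.83% of all probe sets. The smallest unadjusted limma p of a member was 0.114. The changes were small: 86 of 88 were under 0.2 on the log2 scale, and the exceptions were NDUFB3 and UQCRBP1. Of the intervals, 86 of 88 lay within a 1.5-fold change in either direction (97.7%, beside 75.7% of all probe sets and 92.9% of those above the upper quartile). The exceptions were NDUFB3 and UQCRB, whose intervals reach -1.20 and -0.64.

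The median change of the members was -0.034 on the log2 scale, beside 0.0022 over all probe sets and -0.015 over those above the upper quartile. Below 0 were 61 members and above 0 were 27, so 69.3% lay below 0, beside 49.3% of all probe sets and 57.1% of those above the upper quartile. After a further quantile normalization of the table these shares were 63.6%, 49.1% and 50.4%. By complex the median change was -0.052 in complex I, 0.021 in complex II, -0.066 in complex III, -0.021 in complex IV and -0.026 in complex V. Complex II, with 5 probe sets of SDHA, SDHC and SDHD, was the exception in sign, with 3 changes above 0 and 2 below. Complex III had 8 of 8 changes below 0 (7 of 8 after the further normalization). Members are not replicates, and no test was made of these medians. Both CASP2 siRNA arrays lay above both control arrays for 7 members and below them for 12, together 21.6%, beside 29.6% of all probe sets (14.5% above and 15.1% below). Among probe sets above the upper quartile of level, 16.4% had both CASP2 siRNA arrays higher and 22.8% lower. Of the 67 members there these shares were 8.96% and 16.4%. Members with the groups apart, by however small a margin, were thus a smaller share than among probe sets at large.

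**Figure D3:**
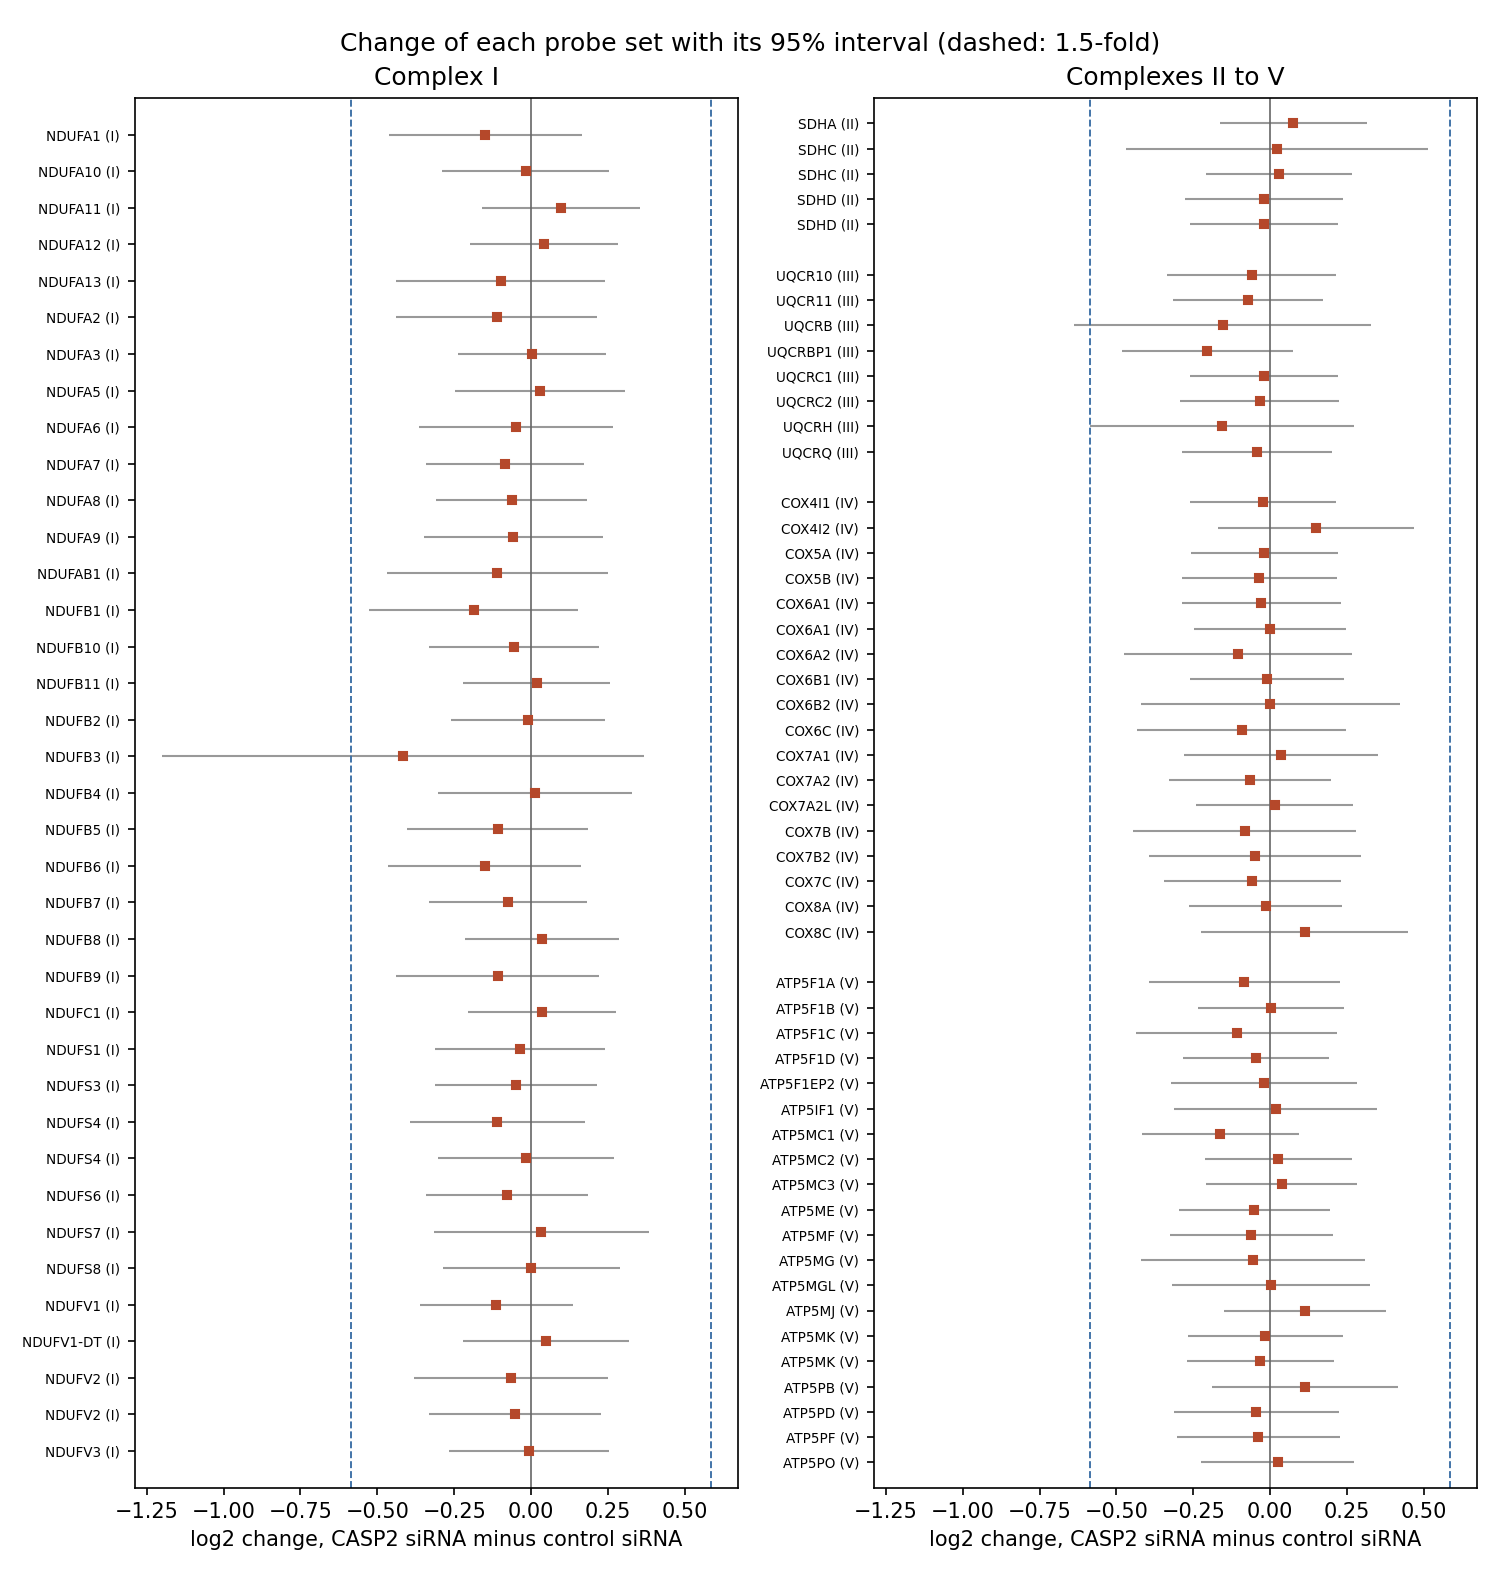
Log2 change of each member probe set, CASP2 siRNA minus control siRNA (squares), with its 95% limma interval (lines), dashed lines at a 1.5-fold change and the complex of each gene in brackets. All intervals include 0, and those of NDUFB3 and UQCRB pass the 1.5-fold line on the lower side.

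The core subunits of complex I, which carry the flavin and the iron-sulphur clusters, gave 7 probe sets for 6 genes. Their changes ran from -0.11 to 0.03 on the log2 scale, and 6 of the 7 lay above the upper quartile of the array. NDUFV1, which binds NADH and flavin, read 10.89 and 10.83 with CASP2 siRNA, against 10.94 and 11.01 with control siRNA, a change of -0.11 (95% interval -0.36 to 0.14). Its silenced arrays lay just below both control arrays.

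The accessory subunits of complex I surround this core and gave 29 probe sets. The 13 of the NDUFA series had changes of -0.15 to 0.10 and the 11 of the NDUFB series had changes of -0.42 to 0.04. NDUFB3, an accessory subunit of the membrane arm, read 8.42 and 7.58 on the CASP2 siRNA arrays, against 8.43 and 8.40 on the control siRNA arrays. This was the largest change among the members, -0.42 (SE 0.29, 95% interval -1.20 to 0.37, limma adjusted p = 0.9999, as for every member). The second CASP2 siRNA array was low, and the first lay between the control arrays. Without that second array the change of NDUFB3 was 0.0018, and without the first it was -0.83 (adjusted p = 0.20). NDUFB1, another membrane arm subunit, read 7.09 and 7.27 with CASP2 siRNA, against 7.27 and 7.47 with control siRNA (change -0.19, SE 0.13, 95% interval -0.53 to 0.15). NDUFB6 read 9.15 and 8.92 with CASP2 siRNA, against 9.21 and 9.16 with control siRNA (change -0.15, SE 0.12, 95% interval -0.47 to 0.16). NDUFB6 was below both control arrays on each silenced array, narrowly so on the first, and NDUFB1 was not clear of them. In the other direction NDUFA11 read 8.72 and 8.79 with CASP2 siRNA, against 8.61 and 8.70 with control siRNA, a change of 0.10 (95% interval -0.16 to 0.35).

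Complex II, which also serves the tricarboxylic acid cycle, had changes of -0.02 to 0.08 over its 5 probe sets. No probe set carried the symbol SDHB alone, so that subunit was not read. SDHA read 11.06 and 11.05 with CASP2 siRNA, against 10.96 and 11.00 with control siRNA (change 0.08, SE 0.09, 95% interval -0.16 to 0.31). Its silenced arrays lay above both control arrays by a margin smaller than its SE. SDHC and SDHD form the membrane anchor where ubiquinone binds. The brighter SDHC probe set read 11.53 and 11.51 with CASP2 siRNA, against 11.49 on each control siRNA array. The dimmer read 8.95 and 8.53 with CASP2 siRNA, against 8.60 and 8.84 with control siRNA. The dimmer one scattered in both groups, and its interval (-0.47 to 0.51) was wider than that of the brighter (-0.21 to 0.27). SDHD read 10.59 and 10.57 with CASP2 siRNA, against 10.66 and 10.54 with control siRNA, on the brighter probe set. On the dimmer it read 9.02 and 9.06 with CASP2 siRNA, against 9.05 and 9.07 with control siRNA. Both SDHD probe sets had a change of -0.02 and overlapped the control arrays. Whether each SDHC and SDHD probe set reads the transcript of the named gene was not tested.

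In complex III the second CASP2 siRNA array was the lowest of the 4 arrays for 8 of 8 members. It was so for 65.9% of all 88 members, 35.3% of all probe sets and 51.7% of those above the upper quartile. UQCRB, which takes part in ubiquinone binding, read 6.92 and 6.45 with CASP2 siRNA, against 6.79 and 6.89 with control siRNA (change -0.15, SE 0.18, 95% interval -0.64 to 0.33). UQCRH, the hinge protein next to cytochrome c1, read 7.05 and 6.67 with CASP2 siRNA, against 6.97 and 7.06 with control siRNA (change -0.16, SE 0.16, 95% interval -0.58 to 0.27). For both genes the first CASP2 siRNA array lay among or above the control arrays. The pseudogene UQCRBP1, a copy of UQCRB, read 5.66 and 5.57 with CASP2 siRNA, against 5.89 and 5.75 with control siRNA (change -0.20, SE 0.10, 95% interval -0.48 to 0.07). It was below on both silenced arrays, yet its level lay under the median of the array, and whether its probes also bind UQCRB transcripts was not tested. The core proteins UQCRC1 and UQCRC2 had changes of -0.02 and -0.03.

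Complex IV has subunits with a widely used form and a form of restricted tissues, and each probe set is given by its place among all probe sets of the array, not against its partner, since probe sets of even 1 gene lay up to 4.35 apart. The widely used forms COX4I1, COX6A1, COX6B1, COX7A2, COX7B and COX8A stood at the 80.5, 99.8, 92.5, 87.4, 78.4 and 95.3 percentiles of all probe sets. The restricted forms COX4I2 (45.7), COX6A2 (58.9), COX6B2 (22.4), COX7A1 (44.6), COX7B2 (11.5) and COX8C (29.7) all stood below the upper quartile. COX4I2 is known from lung, COX6A2 and COX7A1 from heart and skeletal muscle, and COX6B2, COX7B2 and COX8C from testis. The 6 restricted forms had a median level of 5.26, with 0 above the upper quartile and COX6B2 and COX7B2 below the lower one.

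COX4I2 had the largest positive change of the members. It read 5.83 and 6.07 with CASP2 siRNA, against 5.79 and 5.81 with control siRNA (change 0.15, SE 0.12, 95% interval -0.17 to 0.47). Both silenced arrays were above both control arrays, narrowly so on the first. COX8C read 4.66 and 4.91 with CASP2 siRNA, against 4.62 and 4.72 with control siRNA (change 0.11). COX6A2 read 6.79 and 7.09 with CASP2 siRNA, against 6.99 and 7.10 with control siRNA (change -0.10). Both overlapped the control arrays. The 6 restricted isoforms were each higher on the second CASP2 siRNA array than on the first, by 0.23 to 0.39, and their 6 partners each lower, by 0.016 to 0.30. For all probe sets, the distance of each CASP2 siRNA array from the control mean was read by level. Between the lower quartile and the median, where COX4I2, COX7A1 and COX8C lie, its median was -0.049 on the first array and 0.11 on the second. Below the lower quartile, where COX6B2 and COX7B2 lie, these medians were 0.027 and -0.0010. Between the median and the upper quartile, where COX6A2 lies, they were -0.011 and -0.021. The part of this level dependence in the isoform values was not tested. COX4I1 and COX6B2, with changes of -0.02 and 0.00, and the remaining members of complex IV stayed within 0.1 of 0.

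**Figure D4:**
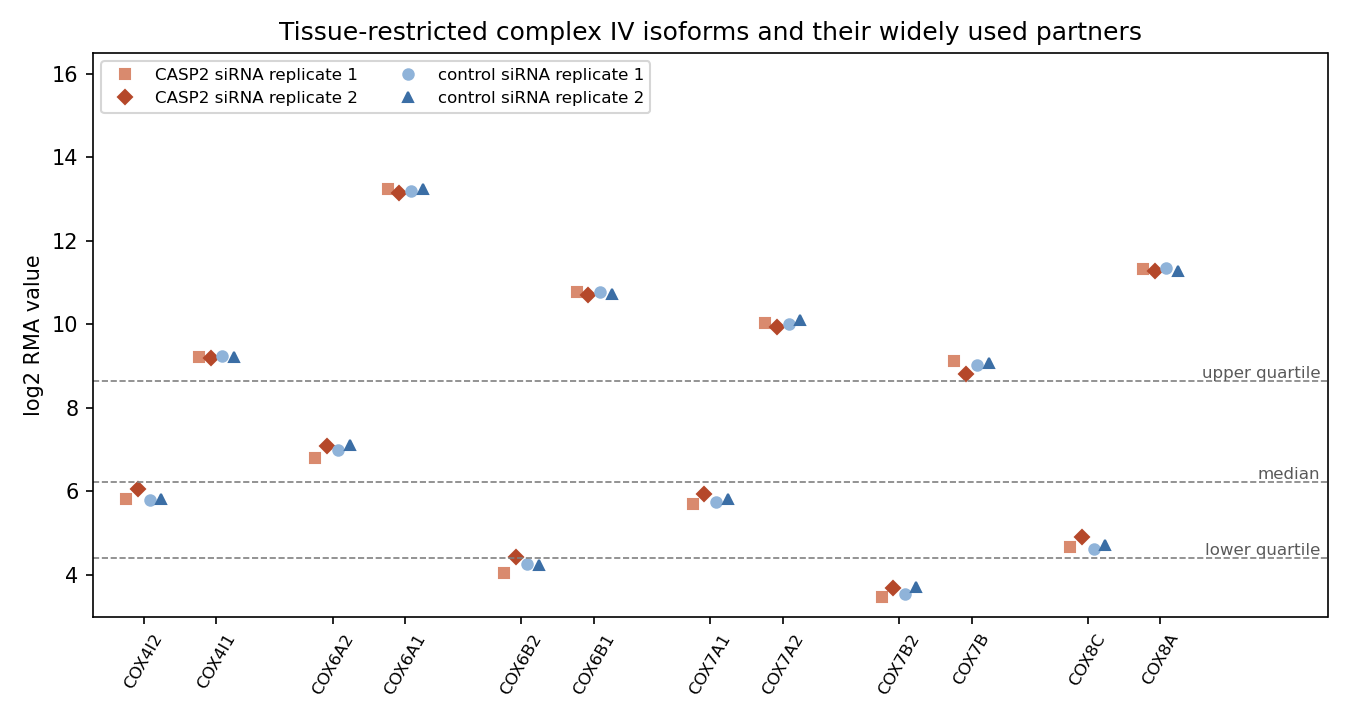
Log2 RMA values on the 4 arrays for the tissue-restricted and the widely used form of each complex IV subunit, with CASP2 siRNA arrays in red tones left of control siRNA arrays in blue tones and the quartiles of all probe sets as dashed lines. The widely used forms lie above the upper quartile, the restricted forms below it, and the restricted forms are each higher on CASP2 siRNA replicate 2 than on replicate 1.

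In complex V the catalytic head (F1) had changes of -0.11 to 0.00. ATP5F1B read 12.72 and 12.71 with CASP2 siRNA, against 12.71 and 12.72 with control siRNA, so the groups overlapped and their means differed by 0.0024. ATP5MC1, ATP5MC2 and ATP5MC3 encode the same mature c subunit from separate genes. ATP5MC1 read 12.63 and 12.52 with CASP2 siRNA, against 12.74 and 12.74 with control siRNA (change -0.16, SE 0.10, 95% interval -0.42 to 0.09). Its silenced arrays were below both control arrays, which read alike. ATP5MC2 and ATP5MC3 had changes of 0.03 and 0.04, and the difference between the c subunit genes was not tested. Of the membrane part and stalk, ATP5MJ read 10.55 and 10.46 with CASP2 siRNA, against 10.44 and 10.34 with control siRNA (change 0.11). ATP5PB, the b subunit of the peripheral stalk, read 7.78 and 7.61 with CASP2 siRNA, against 7.52 and 7.65 with control siRNA (change 0.11). ATP5MJ was above both control arrays on each silenced array and ATP5PB was not. ATP5IF1, which blocks ATP hydrolysis by the enzyme, had a change of 0.02.

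The CASP2 siRNA replicates differed in where the members stood. Against the control mean, the median member stood at 0.011 on the first CASP2 siRNA array and at -0.081 on the second. On the second it was -0.10 in complex I, 0.0020 in complex II, -0.11 in complex III, -0.038 in complex IV and -0.084 in complex V, and on the first it lay between 0.0018 and 0.038 in each complex. The second CASP2 siRNA array was the lowest of the 4 for 58 of 88 members (65.9%, beside 35.3% of all probe sets). Among probe sets above the upper quartile it was the lowest for 49 of 67 members (73.1%), beside 51.7% of all such probe sets, so a high share was also found among strongly detected probe sets in general. The CASP2 siRNA arrays differed by more than 0.3 for 7 members and the control arrays for 0 of 88, with a widest control difference of 0.27. The SD of the difference between replicate arrays was 0.173 over members with CASP2 siRNA and 0.084 with control siRNA. What set the second array apart was not tested.

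**Figure D5:**
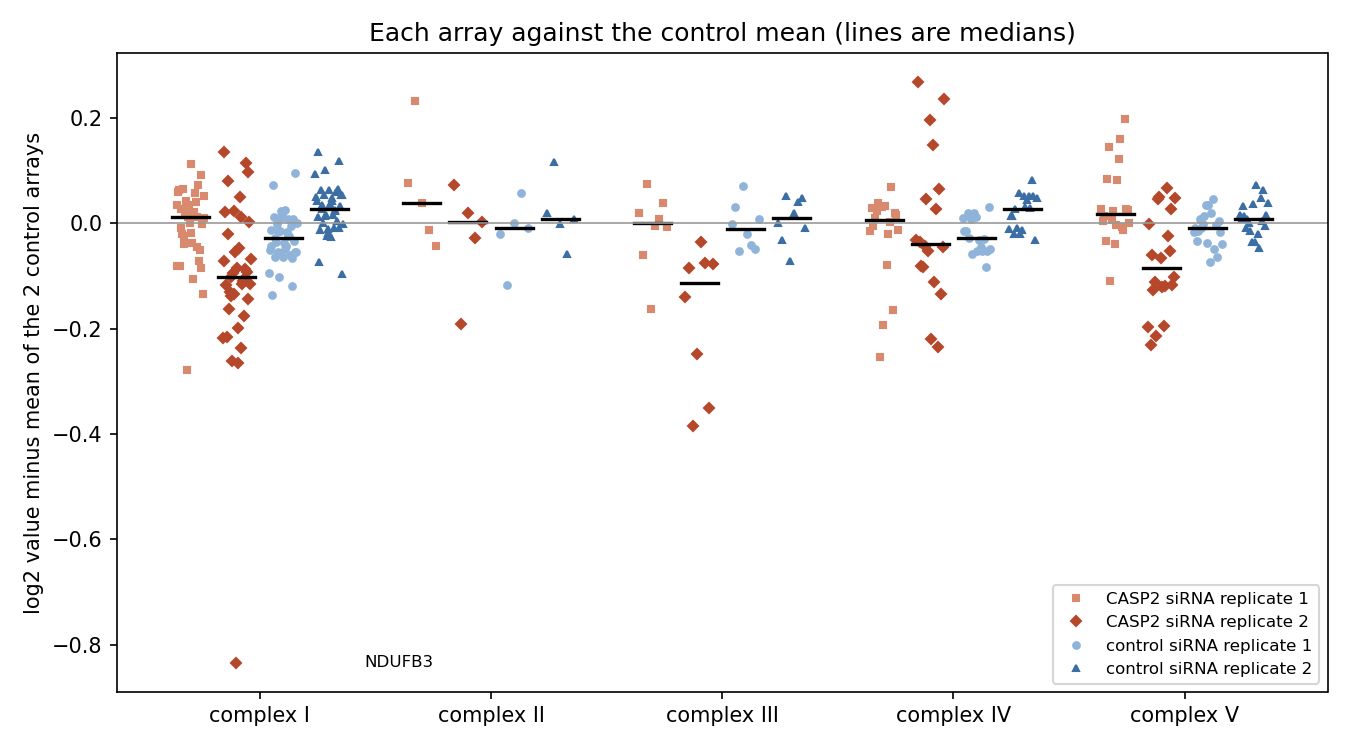
Distance of each member from its control siRNA mean on each array (log2 scale), by complex, with the CASP2 siRNA replicates (red tones) left of the control siRNA replicates (blue tones) and black lines at the medians. The second CASP2 siRNA replicate lies lowest in complexes I, III, IV and V, with medians of -0.10, -0.11, -0.038 and -0.084.

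For 6 genes, 2 probe sets carried the same symbol. Whether both probe sets of a pair read the transcript of the named gene was not tested. The control means of the pair lay 0.87 apart on the log2 scale for ATP5MK, 0.90 for COX6A1, 1.54 for SDHD, 1.94 for NDUFV2, 2.77 for SDHC and 4.35 for NDUFS4, whose product is needed for complex I assembly. The levels thus depended strongly on the probe set. The changes varied less: all 12 lay between -0.11 and 0.03, and no pair differed in sign beyond its intervals. NDUFS4 read 8.41 and 8.28 with CASP2 siRNA, against 8.39 and 8.51 with control siRNA, on the brighter probe set and lay between the median and the upper quartile there. On the dimmer, below the lower quartile, it read 4.17 and 3.99 with CASP2 siRNA, against 4.09 and 4.10 with control siRNA.

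The changes were also read by promoter letters. The 15 probe sets of the 14 genes with an NRF1 match had a median change of 0.0031, with a range of -0.11 to 0.11, and the 58 of the 54 genes without a match had a median of -0.043, with a range of -0.42 to 0.11. These medians are given without a test.

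Genes that build or serve the chain were read from lists drawn up by function, with the brightest probe set of each gene. CYC1 (cytochrome c1) and CYCS (cytochrome c) had changes of -0.08 and 0.06. Of 13 complex I assembly genes, 0 passed an unadjusted p under 0.05, with a median change of -0.11, and the smallest p belonged to NDUFAF7 (-0.21) and ACAD9 (-0.20). Their median distance from the control mean was -0.018 on the first CASP2 siRNA array and -0.24 on the second. The second array was the lowest of the 4 for 10 of the 13, beside 35.3% of all probe sets and 51.7% of those above the upper quartile. Of 9 measured complex II and III assembly genes, UQCC3 alone passed an unadjusted p under 0.05, at -0.36 (limma adjusted p = 0.9999). The next by p was UQCC1 at -0.33. Of 18 complex IV assembly genes, COX20 alone passed it, at 0.26 (limma adjusted p = 0.9999), and the next by p was COA1 at -0.26. With 3.03% of all probe sets at this p, such counts are near the background. The 4 complex V factors had a median change of 0.012, with ATPAF2 at 0.09 and ATPAF1 at -0.04.

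The lists further from the chain gave 0 genes at an unadjusted p under 0.05. Of 17 genes of mitochondrial biogenesis and transcription, 17 had values below 0, with a median change of -0.089 (15 of 17 below 0 after the further normalization), beside 49.3% of all probe sets and 57.1% of those above the upper quartile below 0. Against the control mean the median of the 17 was near 0 on the first CASP2 siRNA array (5.8e-06) and -0.18 on the second. The second array was the lowest of the 4 for 14 of the 17, beside 35.3% of all probe sets and 51.7% of those above the upper quartile. Among the 17 genes ESRRA, a nuclear receptor that drives oxidative genes, was at -0.22. TWNK, the mitochondrial DNA helicase, was at -0.19, and NRF1, the factor of the promoter motif, at -0.13. NRF1 read 7.77 and 7.50 with CASP2 siRNA, against 7.76 on each control siRNA array, so its change lay on the second array alone. Of 73 mitochondrial ribosomal protein genes 63 lay below 0, with a median of -0.087, MRPS10 at -0.30 and MRPL17 at -0.21, and against the control mean their median was -0.0013 on the first CASP2 siRNA array and -0.15 on the second. The 11 tricarboxylic acid cycle genes had a median of -0.024, with DLD at 0.08 and IDH3B at -0.09, and the 36 proteasome genes, of which 30 lay above the upper quartile, had a median of -0.0067, with PSMB9, a subunit of the immunoproteasome, at -0.22 and PSMA4 at 0.12.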

How the data were processed

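Total RNA of U87MG cells was hybridized to 4 Affymetrix arrays, 2 with CASP2 siRNA and 2 with control siRNA, and groups and replicates were taken from the sample labels. The authors applied RMA, and the table they deposited holds log2 values of 32321 probe sets. The sources used here do not give its version. RMA equalizes probe values between arrays, which largely removes a shift of all genes, and compresses values near background. The number of arrays limits the precision.

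Names came from the platform annotation, in which 19158 probe sets have 1 symbol, 1388 several and 11775 none. All 88 member symbols are current in RefSeq (GRCh38.p14). Probe sets were fitted with limma 3.58.1 (lmFit and eBayes, two-sided) in R 4.3.3, CASP2 siRNA minus control siRNA, and p-values were adjusted over all probe sets by Benjamini-Hochberg. Intervals are 95% limma intervals and measure the spread between these arrays. The fit was tested on simulated data with 200 changed probe sets. Named genes were CASP2, the 3 smallest p and the largest change of each sign in each complex, the isoform pairs, the SDH genes, genes with several or dim probe sets and the 2 smallest p of each other list. NDUFV1, UQCRC2, ATP5F1B, ATP5MC2, ATP5MC3, ATP5IF1 and NRF1 were named for their roles after their values were seen, as were the genes of the promoters. Motifs were counted in RefSeq promoters with Python 3.11.15.

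The alternatives tried were the methods' t-test, a trended and robust variance, a further quantile normalization, the replicate number as a block, no dim probe sets, the brightest probe set per gene, subunits alone, and each array left out. The members and lists were chosen with earlier results of these data known.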

Additional observations from a re-analysis of the deposited data

How the results depend on the processing

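With 2 arrays per group and a CASP2 siRNA pair that differed more than the control pair, small changes could not be told from 0. For unadjusted intervals this held for changes under about 0.27 on the log2 scale, the median distance from a member's change to its interval bound. The adjusted limma test did not call even CASP2 at -2.06 (adjusted p = 0.9999). Its lack of calls thus cannot decide whether member changes above 0.27 are present. No alternative gave a member an adjusted p under 0.05; over 537 alternative values of 60 probe sets followed, those with a change given in the report among them, the lowest was 0.20. The count of members lower at an unadjusted p under 0.05 was 1 under a trended and robust variance (ATP5MC1, adjusted p = 0.99999). Leaving out each array in turn, CASP2 changed by -2.20 to -1.93. Members past the thresholds of the study numbered 0 to 0 higher and 0 to 1 lower, the 1 being NDUFB3 without CASP2 siRNA replicate 1, and those past the adjusted p 0 to 0. At an unadjusted p under 0.05 there were 0 to 1 higher (COX4I2) and 0 to 5 lower (UQCRH, NDUFAB1, NDUFB3, UQCRB and NDUFB6), all without CASP2 siRNA replicate 1, when 19.4% of all probe sets were past it. The lone array is then assumed to vary like the other group. The median change of the members lay between -0.081 (without CASP2 siRNA replicate 1) and 0.011 (without replicate 2). It lay between -0.10 and 0.012 in complex I, 0.0020 and 0.038 in complex II, -0.11 and 0.0018 in complex III, -0.038 and 0.0071 in complex IV, and -0.084 and 0.019 in complex V. Members with groups apart numbered 11 to 32 higher and 20 to 58 lower, which fewer arrays make easier. The share of all probe sets with groups apart was not computed with an array left out. These counts thus have no background and cannot show whether the members stood out. A further quantile normalization reversed 9 of the 88 member changes, each under 0.023 in size before it. Among the probe sets followed these were 5, to 0.0089 for an SDHD probe set, 0.0070 for COX4I1, 6.6e-05 for COX6B1, -0.018 for COX6B2 and 0.011 for UQCRC1. Leaving out an array also turned the sign of changes, none of them called, with NDUFB3, UQCRH and UQCRB, among the larger ones, included. The cause was not tested. Over the arrays left out, NDUFB3 ran from -0.83 to 0.0018, the dimmer NDUFS4 probe set from -0.11 to 0.074, NDUFV2 from -0.16 to 0.031 and from -0.12 to 0.011, the dimmer SDHC from -0.19 to 0.23, SDHD from -0.077 to 0.037 and from -0.044 to 0.0020, UQCRB from -0.39 to 0.075, UQCRC2 from -0.076 to 0.0088 and UQCRH from -0.35 to 0.038. In complex IV, COX6A1 ran from -0.082 to 0.023 and from -0.042 to 0.039, COX6A2 from -0.25 to 0.046, COX6B1 from -0.052 to 0.032, COX6B2 from -0.19 to 0.20, COX7A1 from -0.079 to 0.15, COX7B from -0.23 to 0.069, COX7B2 from -0.16 to 0.065, COX8A from -0.046 to 0.017 and COX8C from -0.013 to 0.24. Beyond it, ATP5F1B ran from -0.0057 to 0.011, ATP5IF1 from -0.11 to 0.15, an ATP5MK probe set from -0.064 to 0.033, ATPAF1 from -0.13 to 0.054, ATPAF2 from -0.046 to 0.22 and NRF1 from -0.26 to 0.0062.

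Deviations of arrays with the same replicate number correlated at r = 0.020 over all probe sets, so the numbers were not taken to pair the samples. With the replicate number as a block, 0 members were called at either p, CASP2 changed by -2.06, and over all probe sets the thresholds of the study gave 142 higher and 160 lower, against 107 and 117 without the block.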
